A study of Saccharomyces cerevisiae with 30 samples.

Results

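The genes of the cytosolic ribosome were examined in budding yeast for peaks of Orc5 ChIP-seq, Arp5 ChIP-seq and Break-seq. Members were the protein-coding genes whose symbols begin with RPL or RPS followed by a digit, or are RPP0, RPP1 or RPP2 forms. Of 138 matching symbols, RPP1 was left out because it names a subunit of RNase P and RNase MRP rather than a ribosomal protein. The 137 members, of 6002 nuclear protein-coding genes, comprised 76 genes of the large subunit, 56 of the small subunit and 5 of the acidic stalk, which recruits elongation factors. They form 59 pairs of duplicated genes (A and B copies) and 19 genes present once.

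Ribosomal protein genes are among the most heavily transcribed genes of growing yeast. Rap1 binds most of their promoters together with Fhl1, Ifh1 and Sfp1, and the kinase complex TORC1 keeps them active in rich medium; rapamycin inhibits TORC1 unless the strain carries a resistant TOR1 allele. The origin recognition complex, of which Orc5 is a subunit, marks the sites where DNA replication can begin, and Arp5 is an actin-related subunit of the INO80 nucleosome remodeller.

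In the anchor-away system, rapamycin joins a protein fused to FRB to a carrier that takes it out of the nucleus. Break-seq, which labels and sequences DNA ends, was done in WT-FRB, INO80-FRB, Mot1-FRB and doubly tagged INO80-FRB Mot1-FRB cells (Mot1 removes TATA-binding protein from DNA), each without or with 100 mM hydroxyurea (HU), an inhibitor of nucleotide synthesis. Each of these 8 groups had 2 libraries, and all had received rapamycin for 3 h, WT-FRB included. ChIP-seq was done in Orc5-FRB cells (1 library without and 1 with rapamycin) and in Arp5-FRB cells (2 without and 2 with). The labels' shared ChIP protocol lists nocodazole for 1 h, 8 µg/ml rapamycin for 1 h and 5 µg/ml alpha factor for 1 h. That protocol names Orc2 as the depleted protein, whereas the genotypes name Orc5 and Arp5, and it lists an anti-V5 and an anti-Arp5 antibody without assigning them. In the libraries with rapamycin the tagged protein is thus, by genotype, the anchor-away target. Whether the strains carry a rapamycin-resistant TOR1 allele is not given in the sources used here, so depletion of the tagged protein and any other effect of rapamycin cannot be told apart. The labels do not say that replicates were separate cultures, so their spread may be technical.

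Each library was represented by 1 list of peaks, and read depth was not known. The Break-seq lists held 5 to 510 peaks, the 2 Orc5 lists 1412 and 1965 peaks of at most 10 kb, and the 4 Arp5 lists 5266 to 6274. A gene was counted as having an upstream peak when at least 1 bp of a peak lay in the 500 bp before its annotated start. Shares of members are set beside the share of all genes counted in the same way, which is the background for each count. Any interval covers counting error only. How reads that map equally well to both copies of a duplicated gene were treated is not given in the sources used here, so values that differ between copies are uncertain where their sequences are nearly identical.

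Orc5 peaks lay upstream of more ribosomal protein genes in the library with rapamycin than in the library without. Without rapamycin 37 of 137 members had an upstream peak, or 27.0% (exact 95% interval 19.8% to 35.3%), against 21.8% of all genes. With rapamycin 89 of 137 had one, or 65.0% (56.4% to 72.9%), against 28.7% of all genes. There was 1 library per condition, so the difference has no replicate check and no test. The list with rapamycin was also the longer one, although its peaks covered less of the genome (789 kb against 840 kb), and the part of list length in the difference was not tested.

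Counted gene by gene, 54 members (39.4%) had an upstream Orc5 peak only with rapamycin, against 12.5% of all genes. A further 35 (25.5%) had one in both lists, against 16.1% of all genes. Only 2 had one without rapamycin alone, where the background was 5.65%, and 46 (33.6%) had none in either list, where the background was 65.7%. Members made up 7.17% of the 753 genes with an upstream peak only with rapamycin, and 2.28% of all genes. Over the whole gene with 500 bp upstream and 200 bp downstream, the count rose from 39 members (28.5%; background 27.6%) to 91 (66.4%; background 36.3%).

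Both subunits took part. Large-subunit genes with an upstream peak numbered 22 of 76 without and 50 of 76 with rapamycin, and small-subunit genes 14 of 56 and 38 of 56. The 5 stalk genes gave 1 and 1: RPP2B had the peak without rapamycin and RPP2A with it. RPP0, the protein to which the stalk dimers bind, and the copies RPP1A and RPP1B had none in either list.

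**Figure D1:**
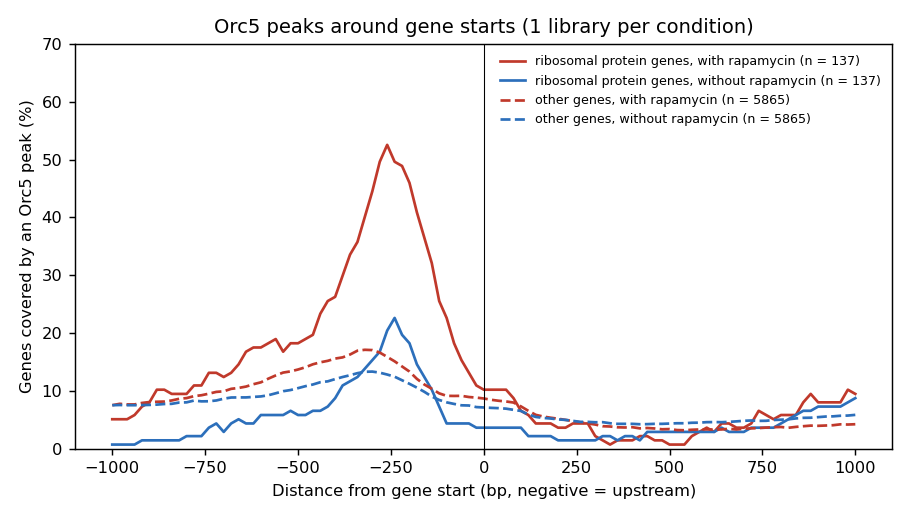
Share of genes (%) covered by an Orc5 peak at each distance from the annotated gene start (bp, negative upstream), for the 137 ribosomal protein genes (solid) and 5865 other genes (dashed), with (red) and without (blue) rapamycin, 1 library each. The members' curve with rapamycin reaches 52.6% at 260 bp upstream, against 22.6% at 240 bp upstream without.

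The members' peaks occupied one stretch of the promoter. With rapamycin the peak of each of the 89 members (86 distinct peaks) had its midpoint before the gene start, at a median of -258 bp (interquartile range -349 to -208 bp), and their median width was 220 bp. Among all genes the median midpoint was -323 bp, and 88.8% lay before the start. The 54 members that had a peak only with rapamycin gave a median of -267 bp, from 51 distinct peaks of median width 197 bp. In the plot of coverage by distance, 52.6% of members were covered at -260 bp with rapamycin, while other genes reached 17.1% at most, at -320 bp. Without rapamycin the members' highest coverage was 22.6%, at -240 bp, so the position was nearly the same in both lists and the share of genes differed.

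Some peaks present only with rapamycin were wide. RPL2B, a protein of the peptidyl transferase region, had a 733 bp peak on chromosome IX from 316327 to 317059 (sacCer3) with its midpoint 75 bp before the gene. RPL16A had 1 of 673 bp on the same chromosome, from 99172 to 99844. RPL40A, which is translated as a fusion to ubiquitin, had 1 of 407 bp from 68290 to 68696, ending 12 bp before its start. These examples were chosen after their values were seen. Among members with a peak in both lists, the overlap with the gene and its flanks was largest at RPL37B and RPL9B. At RPL37B the peak without rapamycin spanned 6023 bp, from 1445224 to 1451246 of chromosome IV. With rapamycin a peak of 5227 bp lay from 1444895 to 1450121, and another of 664 bp from 1450583 to 1451246. At RPL9B the upstream peak was 2295 bp wide without and 1982 bp wide with rapamycin. The other members with the largest overlap of peaks with their windows in both lists were RPS6B, RPL12B, RPL27B, RPL27A, RPS17B, RPL42B, RPS18A, RPL23B, RPS24A and RPL2A.

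The 46 members with no upstream Orc5 peak in either list included RPL3, RPL4A and RPL4B, whose promoters are classically described as bound by Abf1 rather than Rap1. They also included RPL5, a protein of the 5S RNA particle, RPL10, which joins the large subunit late, and RPS31, another ubiquitin fusion. RPS1A and RPL6B, counted here, lay under peaks wider than 10 kb in both lists, and RPS12 with rapamycin, and such peaks were left out. Duplicated copies did not always agree: with rapamycin both copies had an upstream peak in 30 of 59 pairs, 1 copy in 18 and neither in 11. The pairs that differed include RPL11 (A with, B without), RPL26 (B with, A without), RPS1 (B with, A without) and RPS18 (A with, B without). Without rapamycin both copies had one in 5 pairs, 1 copy in 27 and neither in 27. How often unrelated members would disagree was not computed. The counts therefore do not show whether copies differ more or less than other genes.

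The upstream regions of members are long. Their median distance to the neighbouring gene was 634 bp, against 448 bp for all genes, and 72.3% had at least 500 bp, against 43.7%. The gain with rapamycin was seen on either side of that length. Of members with at least 500 bp, 40 of 99 (40.4%) had a peak only with rapamycin, against 16.3% of all such genes. Of those with less, 14 of 38 (36.8%) did, against 9.65%. It was seen where the upstream neighbour is transcribed away from the member (34 of 77, 44.2%; all genes 14.0%) and where it points the same way (20 of 60, 33.3%; all genes 11.0%). Peaks in both lists were split by the same length. Of members with at least 500 bp, 29 of 99 (29.3%) had one, against 27.1% of all such genes. Of those with less, 6 of 38 (15.8%) did, against 7.54%. No member had a tRNA gene in its window, whereas 215 of all genes (3.58%) did.

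Other gene groups of growth and translation gave different counts. Upstream Orc5 peaks were found at 9 of 15 glycolytic genes without and 11 of 15 with rapamycin, and at 5 and 6 of 8 translation elongation factor genes. Both groups are highly transcribed in growing cells, and their shares were already high without rapamycin. Genes of the mitochondrial ribosome gave 10 and 8 of 56, ribosome assembly factors 5 and 6 of 47, and RNA polymerase I subunits 1 and 2 of 8. Among 15 regulators of ribosomal protein genes the count was 3 without and 7 with rapamycin. RAP1, ABF1 and REB1, which encode general promoter-binding factors, and TOR2, a TOR kinase gene, had the peak only with rapamycin. These were 4 of 15 (26.7%), against 12.5% of all genes. A further 8 of 15 (53.3%; background 65.7%) had none in either list, FHL1, IFH1, SFP1 and TOR1 among them.

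**Figure D2:**
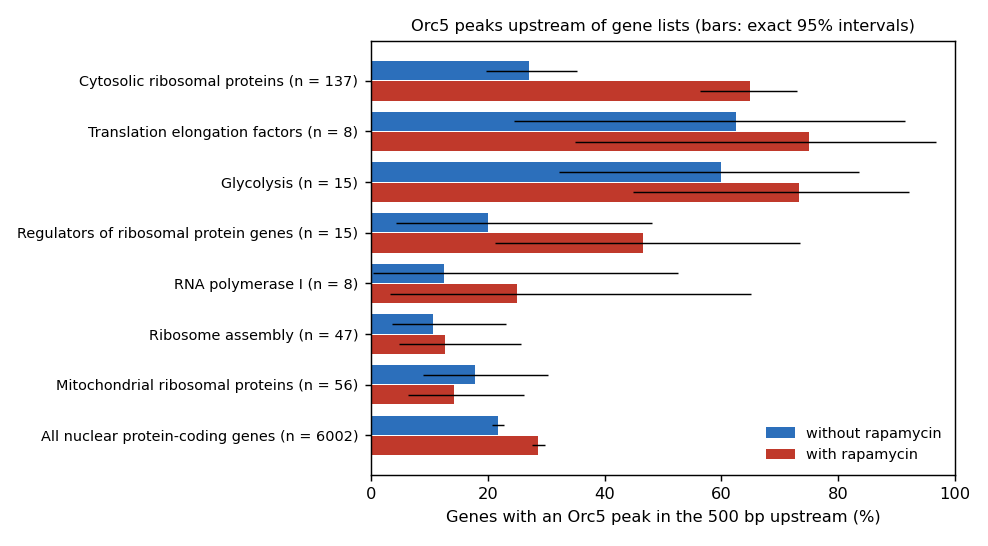
Genes (%) with an Orc5 peak in the 500 bp upstream, by gene list, without (blue) and with (red) rapamycin, 1 library each, with exact 95% binomial intervals that cover counting error only. The ribosomal protein genes go from 27.0% to 65.0% and all genes from 21.8% to 28.7%.

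The Arp5 comparison was limited to 11 chromosomes on which each list held peaks (I, II, III, VI, VII, VIII, X, XI, XIII, XIV and XV), which hold 78 members of 3741 genes. On these, Arp5 peaks lay over the bodies of most members and were scarcer in the stretch just before them. Body peaks were found at 72 and 71 of 78 members without rapamycin, or 92.3% and 91.0%, against 83.2% and 84.4% of all genes. With rapamycin they were found at 75 (96.2%; background 91.4%) and 58 (74.4%; background 84.6%). The second library with rapamycin therefore stood apart from the other 3. Peaks wider than 10 kb, which were left out, covered 5 members (RPS14A, RPL22B, RPL2A, RPL29 and RPS12) in each list but the first with rapamycin, where they covered RPS12 alone. These genes lie on chromosomes III and VI, which held 8 to 84 peaks of any width per list, and at the end of XV.

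The mean share with a body peak was 91.7% ± 0.907 (SD, n = 2) without and 85.3% ± 15.4 (SD, n = 2) with rapamycin, a difference of -6.41 percentage points (two-sided exact permutation p = 1, adjusted p = 1 over 5 tests). Without the second rapamycin library the difference was 4.49 points in the other direction. With 2 libraries against 2, the smallest p this test can give is 0.333. In all, 55 of 78 members (70.5%) had a body peak in all 4 lists, against 77.7% of all genes, and 69 had one in the other 3 lists. The 14 members whose body peak was missing from that library alone include RPL3, a protein of the peptidyl transferase centre, RPL30, RPL32 and RPS15.

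Upstream Arp5 peaks were found at 55 (70.5%) and 47 (60.3%) of 78 members without rapamycin, against 77.1% and 76.0% of all genes. With rapamycin they were found at 55 (70.5%; background 84.6%) and 58 (74.4%; background 82.6%). The means were 65.4% ± 7.25 and 72.4% ± 2.72 (SD, n = 2 each), a difference of 7.05 points (two-sided exact permutation p = 0.667, adjusted p = 0.833), and the groups touched, since both held a library at 70.5%. Counting only peaks in the higher-scoring part of each list turned the difference to -8.97 points. By subunit, upstream peaks in the 4 lists, in the order just given, were at 33, 26, 30 and 30 of 42 large-subunit genes and at 22, 21, 24 and 27 of 35 small-subunit genes.

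Only 31 members (39.7%) had an upstream peak in all 4 lists, against 66.6% of all genes. By contrast, 29 (37.2%) had a body peak in all 4 and an upstream peak in fewer, against 15.3% of all genes. Upstream peaks present in both rapamycin libraries and in neither of the others were found at 4 members (5.13%; background 3.31%): RPL29, RPP2A, RPS15 and RPS23A. RPL29, on chromosome VI, lay under a peak wider than 10 kb in both libraries without rapamycin and in the second with it, so with peaks of every width kept the count was 3. RPP2A and RPS15 are divergent neighbours on chromosome XV and share 1 peak, whose enrichment was 4.71 and 4.23. At RPS23A, a protein of the decoding centre, the enrichment was 6.70 and 8.85. No member had an upstream peak in both libraries without rapamycin and neither with it, where the background was 0.535%. RPL20B, RPS10B, RPS12, RPS19A and RPS26A had none in any list, as did 7.03% of all genes. RPS12 was the only member with no body peak in any list, against 5.64% of all genes, and it lay under a peak wider than 10 kb in all 4 lists.

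**Figure D3:**
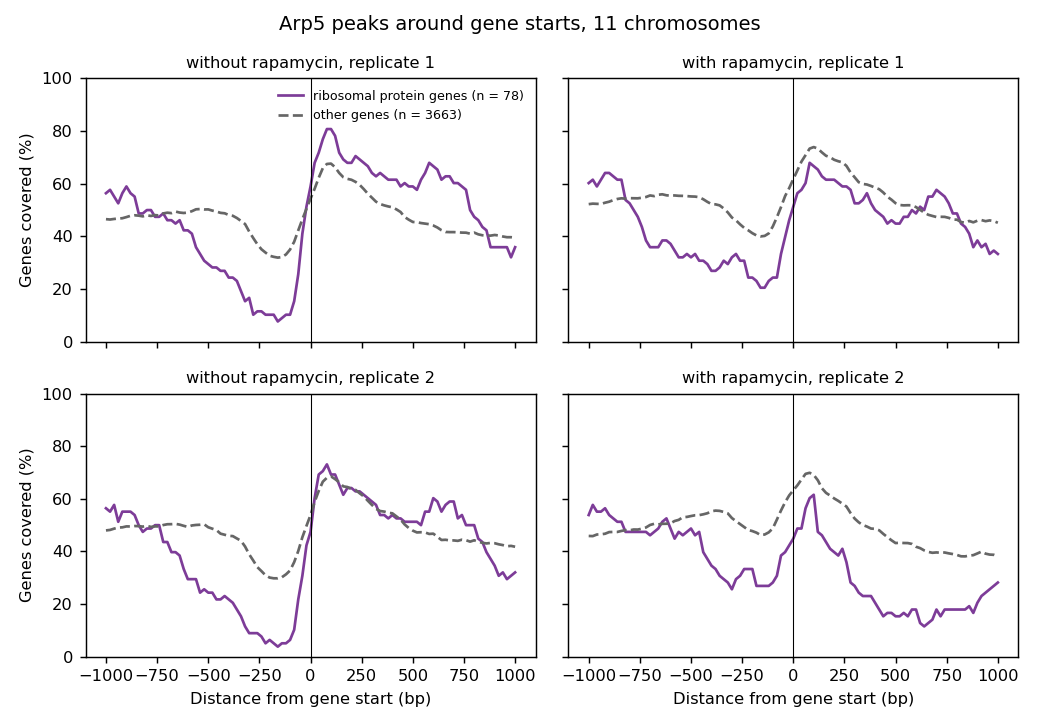
Share of genes (%) covered by an Arp5 peak against distance from the gene start (bp), for 78 ribosomal protein genes (solid) and 3663 other genes (dashed) on 11 chromosomes, 1 panel per library. Coverage of the members falls to 7.69% and 3.85% at 160 bp upstream without rapamycin and stands at 20.5% and 26.9% there with it.

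The profile around the gene start shows the gap. Members' coverage by Arp5 peaks was highest just inside the gene: 80.8% and 73.1% at +80 bp without rapamycin, 67.9% at +80 bp and 61.5% at +100 bp with it. At -160 bp it was 7.69% and 3.85% without and 20.5% and 26.9% with rapamycin. Other genes also dipped at -160 bp, but to 31.9%, 29.8%, 40.0% and 46.2% in the same order. The members' means were 5.77% ± 2.72 without and 23.7% ± 4.53 with rapamycin (SD, n = 2 each), and the groups did not overlap. The difference of 17.9 points gave a two-sided exact permutation p of 0.333, the smallest possible. However, the point was chosen because members' coverage without rapamycin was lowest there. This choice by itself favours a higher value with rapamycin and groups that do not overlap, and the test does not allow for it. Other genes' values were also higher in the rapamycin libraries at that point.

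Farther into the gene the second rapamycin library was low: at +400 bp it covered 20.5% of members, against 61.5%, 53.8% and 50.0% in the other 3, while other genes ranged from 48.6% to 58.5%. The midpoints of members' upstream peaks moved with the same libraries. They lay before the gene start for 40.5% and 40.7% of peaks without rapamycin and for 58.2% and 73.5% with it, against 59.9% to 64.9% among all genes. Many upstream calls without rapamycin were therefore edges of peaks centred inside the gene.

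The authors' enrichment of ChIP over control reads at members' Arp5 peaks differed mainly between chromosomes. For the 31 members with an upstream peak in all 4 lists, the mean enrichment over the lists ranged from 1.50 to 21.7. The 3 members on chromosome X were the highest, at 17.5 to 21.7, followed by the 4 on VII at 8.60 to 14.3, and the 4 on XI were the lowest, at 1.50 to 1.69. Other genes with upstream peaks in all 4 lists had medians of 18.0 on X, 8.64 on VII, 6.02 on VIII and 1.53 on XI, so levels were not compared between chromosomes. Why chromosomes differ was not tested.

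Divided by the median of the other genes on the same chromosome, the members' enrichment ranged from 0.95 to 2.36 with a median of 1.08, and 25 of 31 were above 1. RPL4A on chromosome II (6.93 ± 3.31 against a median of 2.93) and RPL1B on VII (14.3 ± 0.381 against 8.64) had the highest ratios, at 2.36 and 1.65. These SDs are over all 4 libraries, with and without rapamycin. RPL4A gave 11.2 and 6.95 without and 6.35 and 3.19 with rapamycin. RPL17B, which lines the exit tunnel, gave 25.0 and 28.8 without and 21.0 and 12.2 with rapamycin, a ratio of 1.20 over the 4 lists. RPS14B, a protein of the small-subunit platform, gave 24.1, 27.9, 18.0 and 11.4 (ratio 1.13), and RPS21B gave 18.2, 22.3, 18.3 and 11.3 (ratio 0.970). At RPL17B, RPS14B, RPS21B and RPL4A the second rapamycin library was the lowest. An upstream value can come from a peak that also covers the body, and not from the same peak in each list. At RPL1B the upstream and body values were the same in all 4 lists. At RPL17B they were the same except in the second rapamycin list, with 12.2 upstream and 16.5 over the body. The other members among the 10 highest were RPL28 (ratio 1.23), RPL24B (1.05), RPS25A (0.995), RPL8A (1.30) and RPS4B (1.26), and the 5 lowest were RPS7B (1.05), RPS27A (1.11), RPL40B (1.08), RPS21A (1.01) and RPL17A (0.985). RPL17 and RPS21 have one copy on X and the other on XI, so their unequal enrichment (21.7 against 1.50 for RPL17B and RPL17A) cannot be told apart from the difference between those chromosomes. Over bodies, the median member stood at 1.18, 1.18, 1.15 and 1.03 times its chromosome's median in the 4 lists, and the second rapamycin library was again the lowest.

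Upstream Arp5 peaks were also compared between duplicated copies, again without a rate for unrelated genes. Of 15 pairs with both copies on these chromosomes, both had an upstream peak in all 4 lists in 2, 1 copy in 12 and neither in 1. The copies with the peak include RPL14B, RPL20A, RPL24B, RPL42B and RPL9B. Genes of the mitochondrial ribosome gave 39, 38, 40 and 38 of 40 with upstream peaks, ribosome assembly factors 23, 22, 24 and 25 of 29, and glycolytic genes 9, 8, 10 and 9 of 13.

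**Figure D4:**
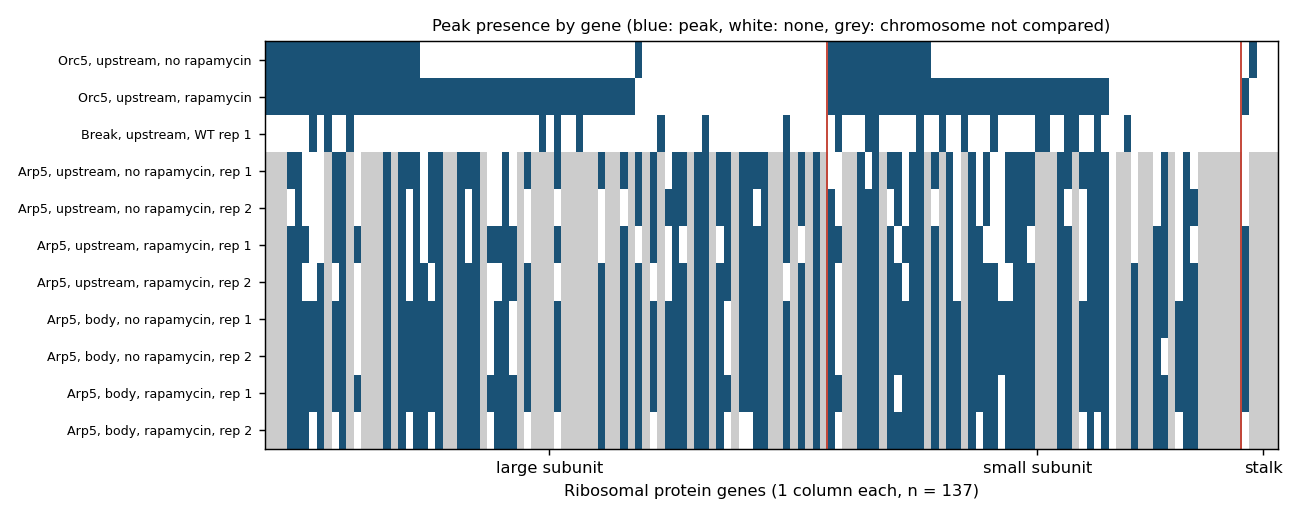
Presence (blue) or absence (white) of a peak at each of the 137 ribosomal protein genes, 1 column per gene, grouped by subunit and ordered by Orc5 peak, with 1 row per list and window; grey marks chromosomes not compared for Arp5. The second Orc5 row, with rapamycin, is filled for 89 genes and the first for 37.

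Break peaks were rare at ribosomal protein genes in every library but 1. In the first WT-FRB library without HU, 22 of 137 members (16.1%) had a break peak upstream, against 3.30% of all genes. In its replicate, 0 of 137 did, which allows a share of up to 2.19%, against 0.883% of all genes. The replicates thus disagreed, with lists of 510 and 373 peaks. Of all 16 lists, 14 held no upstream break peak at any member, and the same lists had one at no more than 1.12% of all genes. The remaining list, the second of INO80-FRB Mot1-FRB cells without HU, held a peak at RPS21B alone (background 0.766%). RPS21B also had one in the first WT-FRB list, so 22 members had an upstream break peak in any of the 16 lists, against 5.1% of all genes.

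The 22 members of the first WT-FRB list comprised 9 of 76 large-subunit genes, 13 of 56 small-subunit genes and none of 5 stalk genes. The median width of their peaks was 179 bp, against 184 bp for upstream break peaks of all genes in that list. The authors' fold enrichment ranged from 1.59 to 2.30 with a median of 1.84, against 1.87 over the whole list. RPS1B had the highest, at 2.30, on chromosome XIII from 146010 to 146192. RPL36B had 2.28, and RPS21B had 2.06 from 157373 to 157674 on chromosome X. These 3 members were also the only ones with an upstream peak scoring above the list's median of 44, at 77, 74 and 51. RPL13A and RPS16B, divergent neighbours 634 bp apart, share 1 peak. RPS6A, whose protein is phosphorylated downstream of TORC1, had 2 peaks in its window.

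The median midpoint of these peaks was -257 bp (interquartile range -338 to -215 bp), against -275 bp for upstream break peaks of all genes in that list. The members' Orc5 peaks with rapamycin had a median of -258 bp. Both sets were picked by overlap with the same 500 bp, which by itself brings their medians near each other. Of the 22 members, 18 (81.8%) also had an upstream Orc5 peak with rapamycin, as did 61.7% of the members without the break peak. Among all genes the shares were 52.0% of the 198 with an upstream break peak in that list and 27.9% of those without. Those 18 were 20.2% of the 89 members with the Orc5 peak. For Orc5 without rapamycin the share was 7 of 22 (31.8%), against 26.1% of the members without the break peak. The other gene lists with upstream break peaks in that library were glycolysis (4 of 15), elongation factors (2 of 8) and regulators (2 of 15: UTP22 and REB1). Mitochondrial ribosomal protein genes (0 of 56) and ribosome assembly factors (0 of 47) had none.

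**Figure D5:**
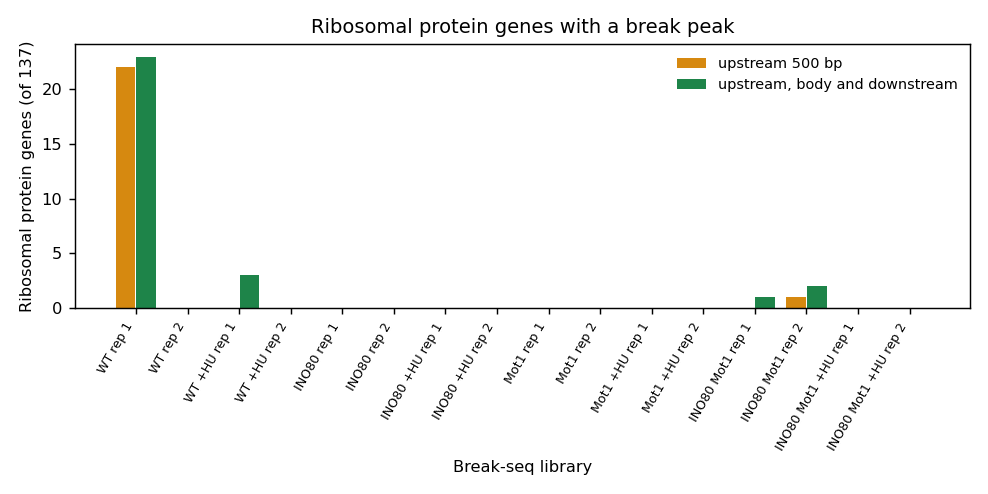
Number of the 137 ribosomal protein genes with a break peak in the 500 bp upstream (orange) or anywhere from 500 bp upstream to 200 bp downstream (green), in each of the 16 Break-seq libraries. The first WT library without hydroxyurea holds 22 and 23 genes, and no other library holds more than 3.

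Counted over the whole window, members with a break peak numbered 23 in the first WT-FRB library (background 5.9%) and 3 in the first WT-FRB library with HU (background 3.6%). Those 3 were RPL12A, RPL27A and RPS0B, with the peak downstream of the gene. INO80-FRB Mot1-FRB cells without HU gave 1 and 2 (backgrounds 2.47% and 2.72%): RPL29 had a break peak in both replicates, by overlapping peaks on chromosome VI from 222980 to 223147 and from 223035 to 223201. The other 12 lists held none. In any list 26 members (19.0%) had a break peak, against 9.26% of all genes. Without the first WT-FRB library 5 members did (3.65%), against 6.01%.

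HU, INO80-FRB and Mot1-FRB made no difference that passed the test. With HU the mean was 0.375 ± 1.06 members per library and without it 3.25 ± 8.01 (SD, n = 8 each), a difference of -2.88 (two-sided exact permutation p = 0.444, adjusted p = 0.833). Libraries with INO80-FRB averaged 0.375 ± 0.744 and those without 3.25 ± 8.05 (exact permutation p = 0.583, adjusted p = 0.833), and the values for Mot1-FRB were the same. All 3 differences came to 0 without the first WT-FRB library. The Mot1-FRB lists were the shortest, at 5 to 40 peaks, so few genes of any kind could be called in them.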

How the data were processed

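The members and the other gene lists were chosen with earlier results of these data known. Reads were aligned with Bowtie2 to sacCer3, per the submitters' processing notes; the peak caller is not given in the sources used here. The deposited Break-seq lists give each peak a score, a fold enrichment and p and q values as −log10. The deposited Arp5 lists give ChIP and control read counts, their ratio (enrichment), a p-value on a log scale treated here as a score, and a q-value. The deposited Orc5 lists give positions only.

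Gene positions and names came from a RefSeq table of the R64 assembly, and strand from the systematic names. Start positions of Break-seq peaks were shifted to count from 1. Peaks wider than 10 kb were left out, and an overlap of 1 bp counted. Library effects were tested with exact permutation tests over libraries, with Benjamini-Hochberg adjustment over 5 tests, in Python 3.11.15 (numpy 2.4.6, pandas 2.3.3, scipy 1.17.1). The overlap and permutation code was tested on simulated data. Genes named were members with break peaks, the 12 with the largest overlap with Orc5 peaks in both lists, the 10 highest and 5 lowest by mean Arp5 enrichment upstream in all 4 lists, those gained or lost or without peaks, and pairs whose copies differ, apart from items not reported here; others were chosen after their values were seen. Planned promoter sequences and motifs were not used here. The 8 NET-seq libraries were not analysed here. Whether replicate numbers pair the Arp5 libraries could not be decided. Members' deviations in libraries of the same number correlated at r = -0.0343 for upstream and -0.0561 for body peaks. For body peaks the libraries without rapamycin agreed at 98.7% of members, so few members had any deviation there.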

Additional observations from a re-analysis of the deposited data

How the results depend on the processing

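Of 220 recomputed values of 18 results, 191 were classed as unchanged, 25 moved and 4 reversed. For a count, unchanged meant close to the reported value. For a tested difference it meant the same direction and the same side of the 0.05 threshold, whatever the size. With stricter peaks, for example, the Arp5 body difference of -6.41 points became -23.7, and the break differences of -2.88 became -0.375. The causes were not tested. Among the reversals, the Arp5 upstream difference became -8.97 points with stricter peaks (exact permutation p = 0.667). The Arp5 body difference became 1.46 points on all nuclear chromosomes and 4.49 without the second rapamycin library. Chromosomes V and XVI, with 6 and 11 members, held peaks only in that library's list (257 and 831). Members there could thus be counted in no other Arp5 list when all nuclear chromosomes were used. The Mot1-FRB break difference became 0.75 when lists under 50 peaks were left out. The count of 31 members with upstream Arp5 peaks in all 4 lists became 15 with an overlap of 100 bp, 3 by peak midpoint, 58 with 1000 bp upstream and 15 with stricter peaks. The count of 4 gained became 7, 7, 2 and 0 in the same order, and the count of 0 lost became 1 by midpoint and 1 with stricter peaks. Leaving out 1 Arp5 library in turn gave 6 to 10 gained and 1 to 7 lost, an upstream difference of 1.92 to 12.2 points and a body difference of -17.3 to 4.49 points. The gained and lost counts can only stay or rise when a library is left out, because their rule then asks for fewer lists. With stricter peaks, 22 members had Arp5 body peaks in all 4 lists, and 3 members had a break peak both over the whole window and upstream. Leaving out 1 Break-seq library in turn gave 5 to 26 members with a break peak, and differences for HU, INO80-FRB and Mot1-FRB of -5.75 to 0. Upstream, 1 member remained without the first WT-FRB library, of 22 in any list. With replicate number as a block, the Arp5 differences of 7.05, -6.41 and 17.9 points gave exact permutation p = 1, 1 and 0.5, and the break differences of -2.88 gave p = 0.25 for HU and 0.625 for INO80-FRB and Mot1-FRB. Depth was unknown, and Orc5 had 1 library per condition.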
